A study of Drosophila melanogaster with 399 samples.

Results

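The genes described here are 10 of the 17612 gene symbols listed for each library: the glial regulators repo, gcm and gcm2, and wrapper, alrm, Eaat1, Gat, Gs2, CG6723 and CG9657, which act in differentiated glia. They were picked by symbol with results of these data already known, above all their lower levels after zfh2 RNAi, so their values in the zfh2 comparisons are given as a description with no test. RNA of whole Drosophila melanogaster embryos was sequenced in 399 libraries, 271 from RNAi crosses against 1 of 45 transcription factors (TFs) and 128 from control crosses. Embryos of each cross were collected at 0–1.5 hours after egg laying (AEL), in the 2-hour window in which the TF peaks and at 16–18 hours AEL, with Hr51 and CG9876 having a second peak window, and each cross and window has 2 libraries apart from 3 RNAi groups with 1.

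All RNAi embryos carried a short hairpin transgene driven by Gal4. Per the study's methods the mothers were homozygous for 2 daughterless-Gal4 (da-Gal4) inserts, a driver active in all tissues, and the control crosses carried a hairpin against mCherry, a fluorescent protein the fly does not have. The control of the E5 set was labelled da-Gal4 alone, and that of the twi set MTD-Gal4, a driver of the maternal germline, and no label gives the driver of the twi RNAi embryos. The groups read most closely were shzfh2 embryos at 12–14 and 16–18 hours AEL, with controls shared with Sox102F and Hr3, and shrepo embryos at 14–16 and 16–18 hours AEL, with controls shared with esn. One hairpin line was used per TF, no cell type was isolated, and in whole embryos fewer cells of a type and less RNA per cell cannot be told apart. The study describes the 2 libraries of a group as biological replicates. No label ties them to separate crosses, so the p-values measure the spread between these samples.

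In the embryonic nerve cord, gcm and its neighbour gcm2 switch precursors to the glial fate, and repo, a homeodomain factor made in nearly all glia except those of the midline, carries that fate on to differentiation. Longitudinal glia lie along the long axon tracts and later form the astrocyte-like and ensheathing glia of the neuropil, where transporters take up glutamate and GABA and glutamine synthetase turns glutamate into glutamine. zfh2 encodes a large protein with zinc fingers and homeodomains.

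The hairpins against zfh2 and repo are printed because the comparisons that follow turn on them. Both are 21 bases long, read 5′ to 3′ as the sense strand, and the capitals mark sense bases 14 to 20, which lie opposite bases 2 to 8, the seed, of the guide strand.
zfh2: atggatgttactaAAGACTTa
repo: ttgctgtagttagACAATAAa
The zfh2 gene is on chromosome 4 and repo on chromosome 3R.

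Levels are given in CPM, the counts of a gene scaled by all counts on genes of its library, and fold changes are those of the edgeR quasi-likelihood fit after TMM scaling. A gene was called lower or higher at an adjusted p of at most 0.1 with a log2 fold change of 0.5 or more in either direction. The depth was 13148430 to 167412388 counts on genes per library (median 54799768). Some libraries stood apart from the others of their group. Replicate 1 of Bdp1 RNAi at 0–1.5 hours held 34.8 CPM of repo, 55.3 of gcm and 169 of the neuronal gene elav, against 0.917, 1.34 and 4.65 in replicate 2. Replicate 2 of Kah RNAi at 0–1.5 hours held 53.4 CPM of Gs2, 13.5 of alrm and 859 of the muscle gene Mhc, against 1.66, 0.245 and 4.81 in replicate 1. Replicate 1 of dmrt99B RNAi at 16–18 hours held 1.10 CPM of repo and 2.92 of elav, against 23.7 and 40.9 in replicate 2. After caup RNAi 84.9% of the genes tested were called at 10–12 hours and 48.7% at 16–18 hours, and TMM scaling moved the fold changes of these 2 comparisons up by 2.09 and 1.62 log2 units relative to plain CPM. For the other comparisons with a called member, and for zfh2 and repo after 0–1.5 hours, this shift ran from −0.18 to 0.57. It was not computed for the remaining comparisons named below, and all fold changes are relative to the scaling. The counts of called pairs given below are therefore also given without caup and without the 0–1.5 hour window.

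In control embryos the glial genes fell into 2 groups by the windows in which they were highest. The regulators and wrapper were highest at 6–10 hours AEL, and the transporters, alrm and Gs2 were highest at 14–18 hours. gcm (2L:9579498-9581745, minus strand, dm6) was the only one of the 10 whose range at 2–4 hours lay wholly above that at 0–1.5 hours. Its median was 2.40 CPM at 0–1.5 hours (42 libraries, range 0.423 to 7.56), 21.3 at 2–4 hours (4 libraries, 9.52 to 25.0) and 62.7 at 6–8 hours (8 libraries, 41.0 to 74.6). It then fell to 11.7 CPM at 10–12 hours (14 libraries, 6.19 to 17.2) and 2.25 at 12–14 hours (10 libraries, 1.80 to 3.04), and stood at 0.998 at 16–18 hours (42 libraries, 0.395 to 5.39). The ranges of successive windows up to 12–14 hours did not overlap for gcm. The rise from 0–1.5 to 2–4 hours was 3.28 on the log2 scale (standard error 0.260, edgeR adjusted p = 1.48e-22), and the fall from 10–12 to 12–14 hours was −2.40 (standard error 0.301, adjusted p = 4.47e-11).

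gcm2 (2L:9608562-9612706, plus strand), which lies 26816 bases from gcm with 3 genes between, followed gcm at a lower level. Its medians were 0.806 CPM at 2–4 hours, 7.53 at 6–8 hours, 9.92 at 8–10 hours, 4.50 at 10–12 hours and 0.422 at 16–18 hours. Its rise into 6–8 hours was 2.91 (adjusted p = 1.10e-06) and its fall from 10–12 to 12–14 hours −2.32 (adjusted p = 2.86e-09), close in size to that of gcm. The exons of gcm overlap those of CG31709 on the same strand, and reads on both were not counted.

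repo (3R:18236192-18239602, plus strand) stayed low until 2–4 hours, with a median of 1.201 CPM (range 0.308 to 3.77), and then reached 46.7 CPM at 6–8 hours (27.1 to 59.7). It was 51.3 CPM at 8–10 hours (2 libraries), 42.1 at 10–12 hours, 31.7 at 12–14 hours, 18.7 at 14–16 hours and 20.9 at 16–18 hours (42 libraries, 7.63 to 28.4). The rise at 6–8 hours was 4.58 on the log2 scale (standard error 0.628, adjusted p = 7.77e-10). No later step of repo was called, and the ranges of its later successive windows overlapped. repo shares exon sequence with CG7156 on the opposite strand, and whether the counting used the strand is not given in the sources used here.

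wrapper (2R:22379637-22382675, plus strand), an immunoglobulin-family surface protein of glia that enwrap axons, had a time course like that of repo. Its medians were 0.930 CPM at 2–4 hours, 29.0 at 6–8 hours, 46.1 at 8–10 hours and 11.9 at 16–18 hours (4.91 to 16.1), and its rise into 6–8 hours was 4.22 (standard error 0.678, adjusted p = 9.32e-08). Gs2 (X:11422832-11430197, plus strand), a glutamine synthetase, rose at the same step by 3.90 (standard error 0.621, adjusted p = 7.47e-08). Unlike wrapper it rose again, from a median of 87.5 CPM at 10–12 hours to 169 at 12–14 hours, 495 at 14–16 hours and 519 at 16–18 hours (42 libraries, 209 to 765).

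The late rise was seen most clearly in Eaat1 (2L:9333567-9341925, plus strand), a glutamate transporter. Eaat1 had a median of 8.92 CPM at 10–12 hours (14 libraries, 6.30 to 17.3), 82.9 at 12–14 hours (10 libraries, 29.0 to 131) and 162 at 14–16 hours (6 libraries, 123 to 170). The ranges of 10–12 and 12–14 hours did not overlap, and the step was 2.95 on the log2 scale (standard error 0.419, adjusted p = 3.34e-09). Gat (4:629691-635350, plus strand), a GABA transporter, went from 68.5 to 204 CPM over the same step (log2 fold change 1.28, adjusted p = 0.00499). alrm (3R:25381065-25382781, minus strand), a leucine-rich repeat protein of astrocyte-like glia, went from 63.9 to 129 CPM (log2 fold change 0.88, adjusted p = 0.0633). Eaat1, Gat and alrm had also risen from 2–4 to 6–8 hours, by 1.47, 1.44 and 2.28 (edgeR adjusted p = 0.0522, 0.0458 and 0.00294). alrm lies within Fur1 without sharing exons with it, and an exon of Gat overlaps a copy of the INE-1 transposon.

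CG6723 (3R:11416218-11418668, minus strand) and CG9657 (X:7418594-7422142, plus strand) have the current names bumpel and rumpel and encode transporters of the sodium-coupled solute family. CG6723 had a median of 3.56 CPM at 10–12 hours, 13.7 at 12–14 hours and 20.7 at 16–18 hours (42 libraries, 8.28 to 32.8). CG9657 had 4.98, 17.0 and 17.1 CPM in these windows. Both rose from 10–12 to 12–14 hours, by 1.76 (adjusted p = 0.000389) and 1.57 (adjusted p = 0.000596), although the ranges of these windows overlapped. CG9657 had also risen from 2–4 to 6–8 hours, by 2.05 (edgeR adjusted p = 0.0083), a step at which CG6723 was not called. At 0–1.5 hours CG6723 had no count in 12 of 42 control libraries and CG9657 in 11.

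Across the 7 steps between successive windows, 7 of the 10 genes were called higher at 2–4 hours, where 43.3% of all genes tested were, and 9 at 6–8 hours, against 32.2%. Of the 4 control libraries at 2–4 hours, replicate 2 of the CG15696, su(Hw), gfzf and cad controls held most alrm, Gat and Mhc. It had 5.08, 10.65 and 345.6 CPM, against 1.19, 2.66 and 68.7 in replicate 1 of that set. Gat was called higher although its median was 1.83 CPM at 0–1.5 hours and 1.56 at 2–4 hours. At 8–10 hours, a window with 2 control libraries, edgeR and DESeq2 each called 0 of the 10, where 7.55% of genes were called higher and 3.68% lower. Of these 10, alrm alone had an unadjusted p under 0.05 (0.0236, and 0.147 after adjustment in edgeR). At 10–12 hours gcm alone was called lower (log2 fold change −1.496, adjusted p = 0.0327, against 1.68% of genes), and at 12–14 hours 6 genes were called higher (24.4%) and gcm and gcm2 lower (11.8%). Eaat1 and Gs2 were called higher at 14–16 hours (12.3%), with log2 fold changes of 1.08 (adjusted p = 0.0840) and 1.62 (adjusted p = 0.00158). gcm was called lower at 16–18 hours (log2 fold change −0.72, adjusted p = 0.0552, against 8.34%). The libraries of a window come from other control crosses than those of the next, and without replicate 2 only 2 genes were called higher at 2–4 hours, without replicate 1 only 4 at 6–8 hours and 3 at 12–14 hours.

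**Figure D1:**
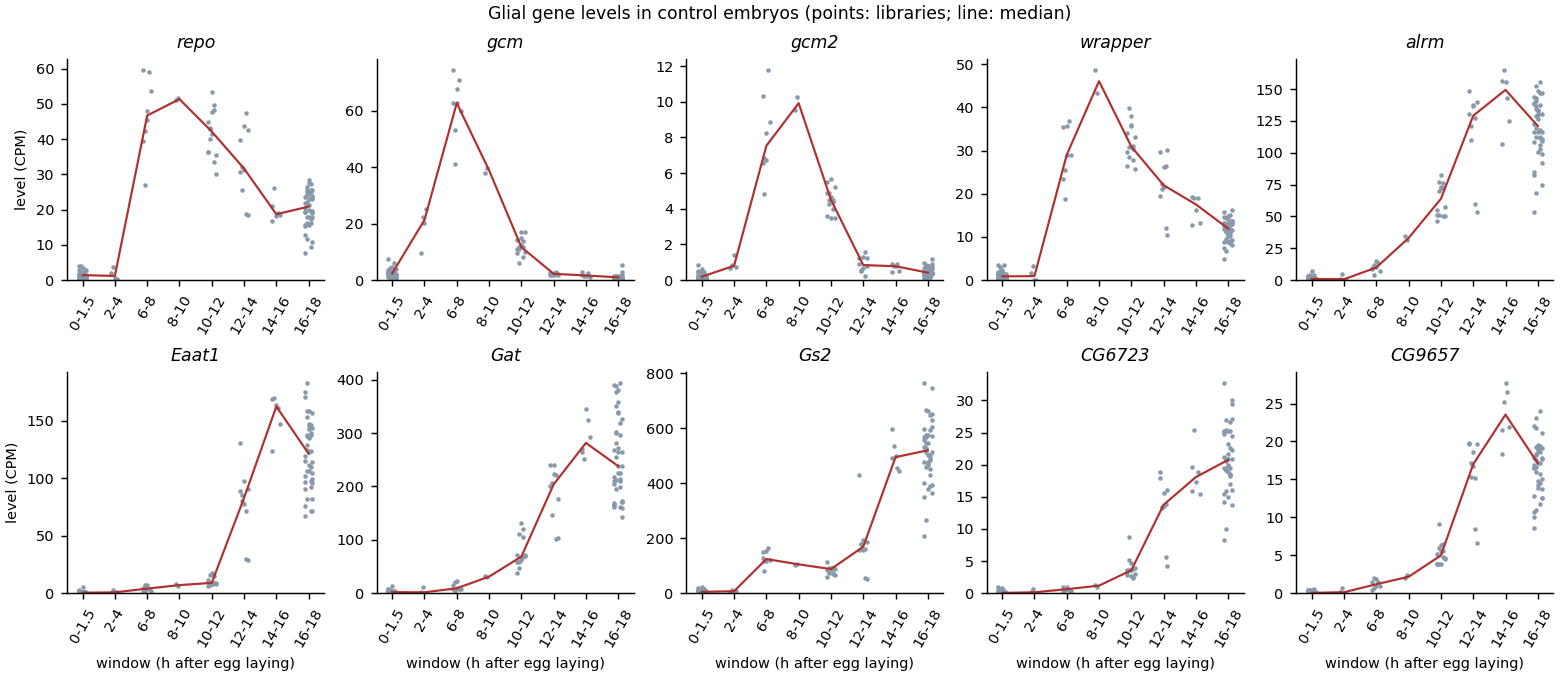
Level in CPM (vertical axis, linear, one scale per gene) of each glial gene in control embryos by window in hours after egg laying (horizontal axis). Points are libraries and the line joins the medians, and repo, gcm, gcm2 and wrapper have their highest medians at 6–10 hours while the other 6 genes have theirs at 14–18 hours.

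Per kilobase of exon sequence, the levels in control embryos at 16–18 hours ran from Gs2 at a median of 233 CPM per kb, through Gat at 82.2, alrm at 70.5 and Eaat1 at 38.7, to CG6723 at 10.4, repo at 6.96, CG9657 at 6.70, wrapper at 6.04, gcm at 0.459 and gcm2 at 0.181. The levels of repo, CG9657 and wrapper lay close together on this scale. Set against its highest window, the median CPM at 16–18 hours was 62.8-fold lower for gcm and 23.5-fold lower for gcm2. For wrapper it was 3.86-fold and for repo 2.46-fold lower, while for CG9657, Eaat1, alrm and Gat it was 1.18-fold to 1.37-fold lower.

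After zfh2 RNAi the genes described here that act in differentiated glia had low RNA levels. None of the regulators repo, gcm and gcm2 was lower than the controls of the set in both windows. These are the values that chose the genes, so no test is attached to them. The targeted gene itself differed little: zfh2 stood at 49.3 and 53.9 CPM in the RNAi libraries at 12–14 hours against 64.6 and 75.8 in control, and at 53.4 and 41.2 against 46.9 and 58.4 at 16–18 hours. Its log2 fold changes were −0.49 (standard error 0.111) and −0.32 (standard error 0.209), with ranges that overlapped in the later window. Of all genes tested, 1.45% were called at 12–14 hours and 0.407% at 16–18 hours.

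CG6723 had the largest difference of the 10 genes. At 12–14 hours its level was 0.125 and 0.166 CPM in the zfh2 RNAi libraries, from 8 and 11 counts, against 5.62 and 4.24 CPM in the control libraries, from 352 and 268 counts. In the 16–18 hour window it was 0.269 and 0.217 CPM, from 15 and 12 counts, against 8.28 and 10.1 CPM. All zfh2 libraries lay far below the controls, with log2 fold changes of −5.10 (standard error 0.328) and −5.39 (standard error 0.297), or 34.4-fold and 42.0-fold lower.

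CG9657 was 1.301 and 1.149 CPM at 12–14 hours against 8.45 and 6.58 in control, and 2.79 and 1.50 at 16–18 hours against 8.66 and 11.01. The ranges did not overlap in either window, and the log2 fold changes were −2.66 (standard error 0.214) and −2.35 (standard error 0.329), or 6.34-fold and 5.11-fold lower. The RNA left was a larger share of the control level than for CG6723.

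For alrm the RNAi libraries had 27.9 and 24.7 CPM at 12–14 hours against 60.1 and 53.2, and 28.2 and 18.9 at 16–18 hours against 53.2 and 68.4. Gat had 58.3 and 53.6 CPM against 102 and 103 at 12–14 hours, and 75.6 and 43.8 against 161 and 196 at 16–18 hours. Eaat1 had 16.1 and 15.9 CPM against 30.0 and 29.0, and then 44.7 and 28.2 against 67 and 82.0. In all 3 genes both RNAi libraries lay below both controls in both windows. The log2 fold changes at 12–14 and 16–18 hours were −1.15 and −1.53 for alrm, −0.92 and −1.74 for Gat and −0.93 and −1.19 for Eaat1, with standard errors of 0.0798 to 0.307.

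wrapper was lower to a similar degree, with 6.47 and 6.11 CPM against 12.1 and 10.4 at 12–14 hours and 3.81 and 2.95 against 4.91 and 6.85 at 16–18 hours. Its ranges did not overlap, and its log2 fold changes were −0.88 and −0.96. Gs2 differed least among the 7 genes that were lower against these controls. It had 44.4 and 42.3 CPM against 56.1 and 51.1 at 12–14 hours, and 198 and 165 against 209 and 266 at 16–18 hours, with log2 fold changes of −0.36 and −0.55.

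The regulators behaved differently. repo was 18.1 and 17.6 CPM against 18.7 and 18.4 at 12–14 hours, and 16.5 and 13.03 against 7.63 and 11.8 at 16–18 hours, so that in the later window both RNAi libraries were above both controls. The log2 fold changes of repo were −0.10 and 0.45. gcm was 2.54 and 1.74 CPM against 2.17 and 1.80, then 0.859 and 0.688 against 0.806 and 0.515, and its ranges overlapped in both windows. gcm2 was under 1 CPM in every one of these libraries. At 12–14 hours it was 0.847 and 0.937 CPM against 0.240 and 0.776, above both controls. Its log2 fold changes were 0.76 (standard error 0.558) at 12–14 hours and 0.07 at 16–18 hours. In all, 6 of the 10 genes at 12–14 hours and 7 at 16–18 hours were at −0.5 or less on the log2 scale, and the median over the 10 was −0.90 and −1.07, where the median of all genes tested was −0.000868 and −4.38e-05.

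**Figure D2:**
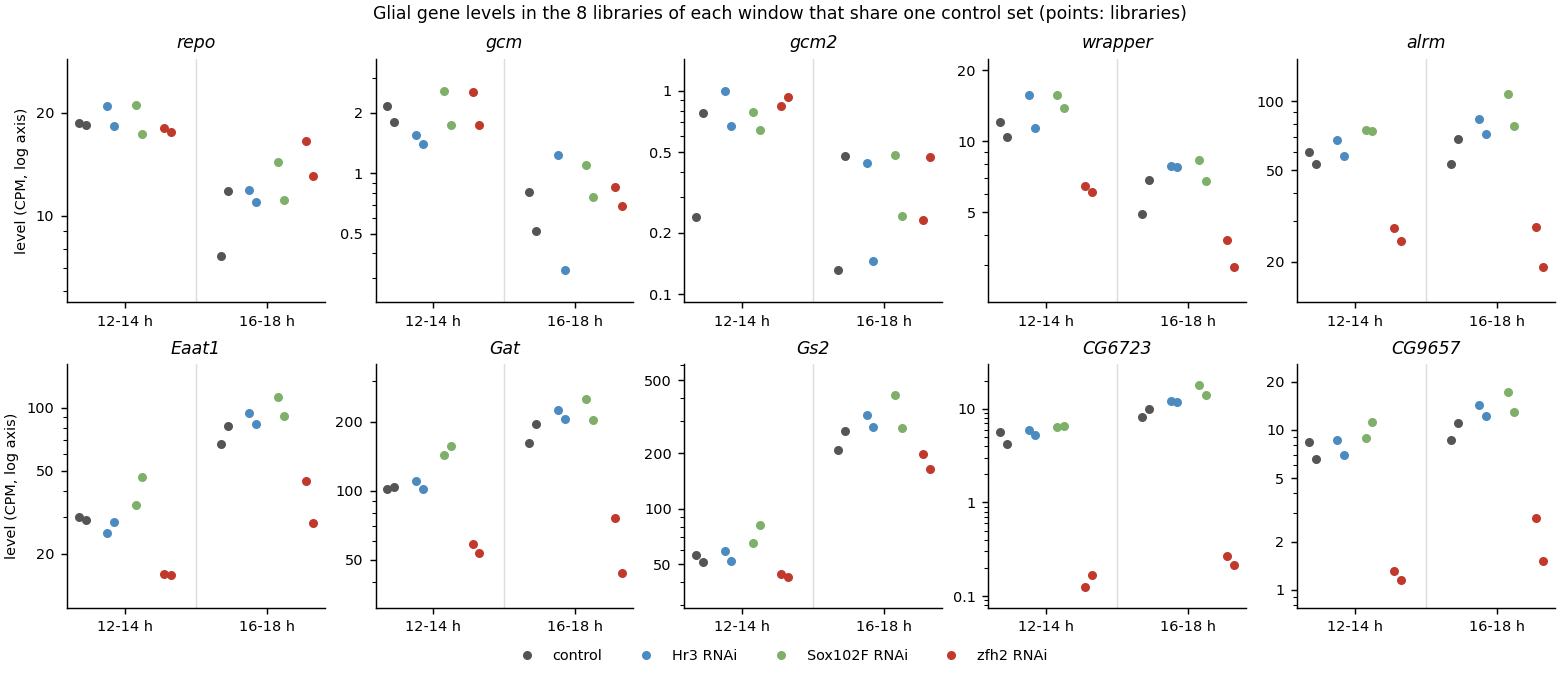
Level in CPM (vertical axis, logarithmic, one scale per gene) of each glial gene at 12–14 and 16–18 hours AEL in the control, Hr3 RNAi, Sox102F RNAi and zfh2 RNAi libraries that share one control pair, each point a library. The zfh2 points lie below the others for wrapper, alrm, Eaat1, Gat, Gs2, CG6723 and CG9657, and among or above them for repo, gcm and gcm2.

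The controls of this set bear on the size of these values. At 12–14 hours they were low for their window, with Eaat1 at 30.0 and 29.0 CPM where the median of all 10 control libraries was 82.9. Among the 42 control libraries at 16–18 hours, replicate 1 of these controls had the lowest level for repo, wrapper, alrm, Eaat1, Gs2, CG6723 and CG9657. The Hr3 and Sox102F RNAi libraries of the set were collected against the same controls and gave another reference. CG6723 was 6.00 and 5.30 CPM after Hr3 RNAi and 6.37 and 6.56 after Sox102F RNAi at 12–14 hours, and 12.1 and 11.8, and 17.9 and 14.0, at 16–18 hours. Against these 4 libraries the zfh2 log2 fold changes at 12–14 and 16–18 hours were −5.46 and −5.82 for CG6723, −2.97 and −2.699 for CG9657, −1.48 and −1.83 for alrm, −1.296 and −1.86 for Gat, −1.27 and −1.17 for wrapper, −1.18 and −1.36 for Eaat1 and −0.68 and −0.81 for Gs2. repo was −0.22 and 0.31 against them. With all control libraries of the window as reference (10 at 12–14 hours and 42 at 16–18 hours), the differences of the 7 lower genes were larger in both windows. They were then −6.235 and −6.242 for CG6723, −3.45 and −2.79 for CG9657, −2.05 and −1.56 for Eaat1, −1.91 and −2.17 for alrm, −1.77 and −1.33 for Gs2, −1.57 and −1.61 for wrapper and −1.51 and −1.94 for Gat. Gs2 was therefore no longer the gene that differed least at 12–14 hours, where Gat was. repo was −0.65 and −0.28 with this reference, gcm 0.13 and −0.37 and gcm2 0.23 and −0.30, so the direction of all 3 regulators in the later window changed with the reference.

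The summed levels of neuronal and muscle genes in these libraries lay above those of their controls or overlapped them. elav, an RNA-binding protein of neurons, was 53.3 and 57.1 CPM against 40.1 and 46.4 at 12–14 hours and 40.9 and 35.9 against 24.7 and 31.7 at 16–18 hours. The 14 genes of a neuron list summed to 1147 to 1179 CPM against 946 to 988, and to 1382 to 1812 against 1049 to 1333, and edgeR called none of the 14 in either window, with 7 and 1 at an unadjusted p under 0.05, while DESeq2 called 1 higher at 16–18 hours. The 7 muscle genes summed to 13320 to 14700 CPM against 12800 to 13030, and to 19590 to 22670 against 14940 to 20510. edgeR called none of the 7, with 0 and 1 at an unadjusted p under 0.05, and DESeq2 called bt, which encodes a giant protein of muscle, lower at 16–18 hours (log2 fold change −0.67, DESeq2 adjusted p = 0.0553). No gene of these lists was at 0 in all libraries.

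Among all TFs the zfh2 values were at the low end for the same genes. Of the 13 TFs compared at 12–14 hours and the 45 at 16–18 hours, zfh2 had the lowest log2 fold change of CG6723, CG9657, alrm, Eaat1 and Gat in both windows. For CG6723 the next lowest was −0.53 (Hr51) at 12–14 hours and −1.09 (CG10209) at 16–18 hours, and for CG9657 −0.58 (scro) and −0.998 (caup). For Eaat1 and Gat the gap at 12–14 hours was small, with −0.89 and −0.88 after scro RNAi. wrapper was lowest at 12–14 hours and second to caup (−1.03) at 16–18 hours, Gs2 was 5th and 3rd from the lowest, and repo was 4th of 13 and 44th of 45. At 12–14 hours all of the other 33 libraries of the window lay above both zfh2 libraries for the 7 genes from wrapper to CG9657. These levels were compared across control sets, and the share of all genes with such ranges was not computed. For wrapper, alrm, Gs2, CG6723 and CG9657 the lowest of the 33 was replicate 2 of the zfh2 set's own controls. In the later window none of the other 130 libraries had less CG6723 than either zfh2 library, and for the other 6 genes the only libraries that had less than the higher of the zfh2 libraries were among the 2 caup libraries and replicate 1 of dmrt99B.

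**Figure D3:**
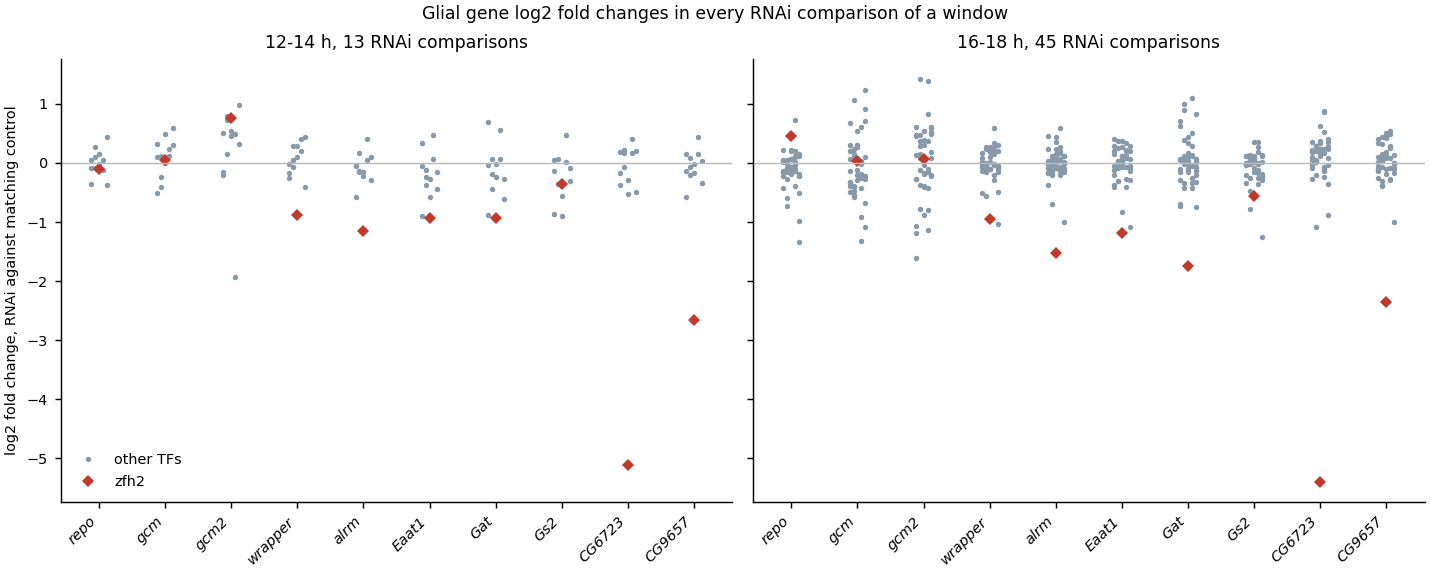
Log2 fold change of each glial gene (horizontal axis) in every RNAi comparison at 12–14 hours (13 TFs) and 16–18 hours (45 TFs), with a diamond for zfh2 and points for the other TFs. The diamonds stand at −5.10 and −5.39 for CG6723 and at −2.66 and −2.35 for CG9657, below every other point, and within the other points for gcm and gcm2.

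At 0–1.5 hours all 10 genes were at 7.21 CPM or less in the libraries of this set, and both zfh2 libraries were below both controls for every one of the 10 but gcm2, the regulators repo and gcm included. The share of all genes with such ranges was not computed, so these ranges cannot be set against the other genes. repo was 0.765 and 1.03 CPM against 1.84 and 4.09, and gcm 1.41 and 0.697 against 1.72 and 2.82. Gat was 1.11 and 1.46 CPM against 7.21 and 6.73, and alrm 0.716 and 0.602 against 3.47 and 4.20. CG6723 and CG9657 had 0 counts in both zfh2 libraries, against 17 and 4 counts of CG6723 and 20 and 23 of CG9657 in the controls. edgeR called 0 of 9616 genes in this comparison, with 1110 at an unadjusted p under 0.05, and DESeq2 called 381, of which 380 were lower. zfh2 was 4.99 and 4.71 CPM against 9.88 and 19.5, and elav 5.37 and 5.29 against 8.99 and 15.7, so zfh2 and elav were low with the glial genes here, and their part in the glial values was not tested.

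Of 29 other glial genes in 6 lists (regulators, neuropil, cortex and wrapping, surface, midline and engulfment), most differed little after zfh2 RNAi. At 12–14 hours 3 of 29 were called lower and 1 higher, with a median log2 fold change of 0.09, and at 16–18 hours 2 lower and 2 higher, with a median of 0.02. All of those called lower, Obp44a, Cyp4g15 and naz, are among the genes that the study named as longitudinal glia genes lower after zfh2 RNAi, so their calls are not independent evidence. Obp44a, an odorant-binding protein family member, was called lower in both windows with log2 fold changes of −3.79 and −4.75. Cyp4g15, a cytochrome P450, was also lower in both, at −1.69 and −2.45, and naz was lower at 12–14 hours only, at −1.08, with no test of the difference between windows. Oaz, a zinc finger protein, was called higher in both windows, at 1.14 and 1.46, and stumps, an adaptor of the FGF receptor, at 16–18 hours, at 1.10. At 16–18 hours DESeq2 gave no adjusted p for 13 of the 29, among them Cyp4g15, Oaz and stumps, because its own filter left them out, and its log2 fold changes for these 3 genes were −2.46, 1.45 and 1.09. Of the 25 list genes that the study did not name, edgeR called 0 lower in either window, with 7 and 4 at an unadjusted p under 0.05, and DESeq2 called ced-6 lower at 16–18 hours. The study named 11 such genes outside the 10 members, 4 of them in the 6 lists. Of the other 7, edgeR called 4 lower at 12–14 hours and 2 at 16–18 hours, and these too were chosen on these libraries.

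repo RNAi gave a partial loss of repo RNA and few differences in the other glial genes. At 14–16 hours repo was 13.6 and 10.8 CPM in the RNAi libraries against 18.1 and 19.0 in control, and 19.4 and 19.6 after esn RNAi with the same controls. Later, at 16–18 hours, it was 9.10 and 10.2 against 21.2 and 19.7. Both RNAi libraries were below both controls in each window. The log2 fold changes were −0.68 (standard error 0.168) and −0.99 (standard error 0.157), neither of which passed the edgeR test after adjustment over all genes (adjusted p = 0.129 and 0.703). DESeq2 gave adjusted p values of 0.0153 and 0.00112 for the same comparisons.

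At 14–16 hours, where 2.49% of genes tested were called lower and 3.14% in either direction, Gat and CG9657 were called lower and the other 8 genes were not called. Gat was 134 and 194 CPM after repo RNAi against 345 and 324 (log2 fold change −1.11, standard error 0.183, edgeR adjusted p = 0.0501). CG9657 was 18.4 and 16.1 CPM against 27.8 and 26.5 (log2 fold change −0.73, standard error 0.142, adjusted p = 0.0710). After esn RNAi CG9657 was 30.6 and 26.4 CPM, near the controls, but Gat was 327 and 192, so that 1 esn library was as low in Gat as 1 of the repo libraries. elav was 25.3 and 45.2 CPM after repo RNAi, 48.8 and 25.9 after esn RNAi and 53.6 and 49.5 in control, and the 14 neuron genes summed to 1338 to 2127 CPM after repo RNAi against 2002 to 2324, with VAChT called lower (log2 fold change −1.09, adjusted p = 0.0713). Within the repo and the esn group the library with less Gat also had less elav, but the repo and esn libraries at 194 and 192 CPM of Gat had 45.2 and 25.9 CPM of elav. The part of this in the Gat value was not tested. Neither call was made without control replicate 1, or in a fit with the esn libraries.

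alrm, Eaat1, wrapper, Gs2 and CG6723 were not called at 14–16 hours after repo RNAi. alrm was 151 and 166 CPM against 156 and 143, Gs2 528 and 540 against 498 and 456, and CG6723 23.4 and 22.4 against 17.2 and 18.9. The values of Gs2 and CG6723 were above both controls and those of alrm overlapped them. Of the 29 other glial genes, 5 of which had an unadjusted p under 0.05, edgeR called 0 lower (DESeq2 1), and 1, Cyp4g15, was called higher, at 42.6 and 42.0 CPM against 25.8 and 26.5 (log2 fold change 0.61, adjusted p = 0.0667).

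At 16–18 hours edgeR called 0 of 11374 genes after repo RNAi, with 669 at an unadjusted p under 0.05, and DESeq2 called 57. wrapper was 7.34 and 8.26 CPM against 11.5 and 11.9, below both controls and below the 13.4 and 13.01 CPM after esn RNAi, with a log2 fold change of −0.48 (unadjusted p = 0.0311, adjusted p = 0.703). gcm was 1.69 and 1.51 CPM against 0.824 and 1.26, above both controls, but esn RNAi gave 1.76 and 0.738. Gat, at 312 and 225 CPM against 358 and 297, and CG9657, at 18.1 and 18.4 against 19.6 and 19.4, were closer to control than at 14–16 hours. The differences between the 2 windows, tested as an interaction, were 0.90 for Gat and 0.73 for CG9657 on the log2 scale, each with an adjusted p of 1.

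**Figure D4:**
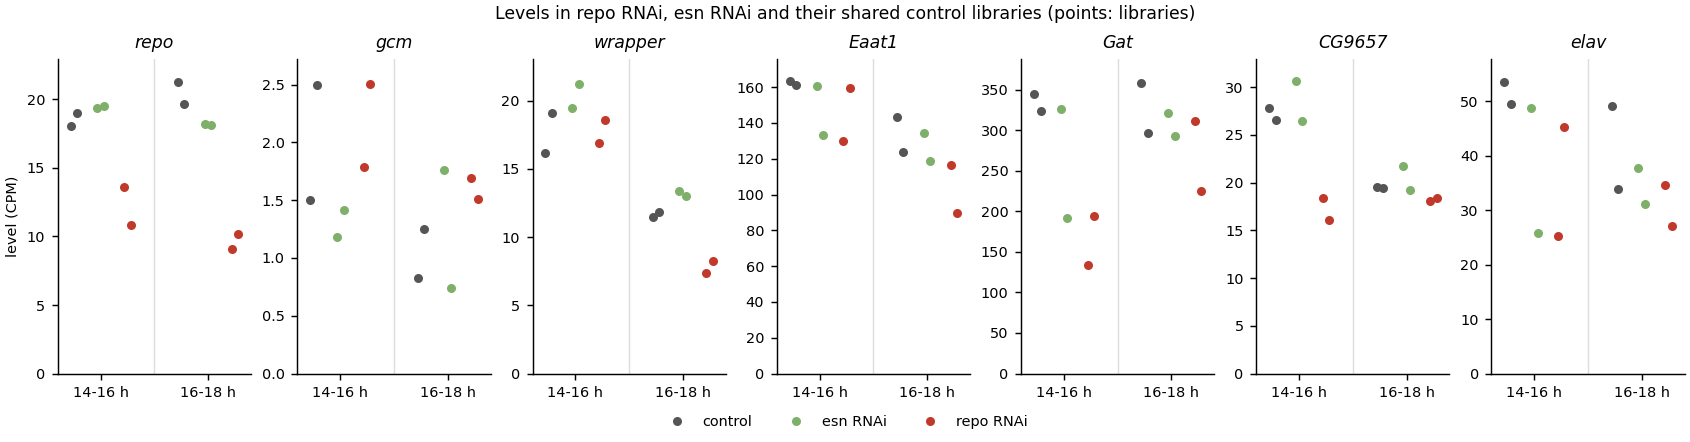
Level in CPM (vertical axis, linear, one scale per gene) of repo, gcm, wrapper, Eaat1, Gat, CG9657 and the neuronal gene elav in control, esn RNAi and repo RNAi libraries at 14–16 and 16–18 hours AEL, each point a library. repo lies at 9.10 to 13.6 CPM in the 4 repo RNAi libraries and at 18.1 to 21.2 CPM in their controls, while Gat and elav spread widely within the RNAi groups at 14–16 hours.

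Across the other TFs and repo, calls on these genes were few and mostly lower. In 134 comparisons, 1249 pairs of a gene and a comparison passed the count filter, and 42 pairs (3.36%) were called lower and 7 (0.56%) higher. Summed over the same comparisons, 1.85% of all genes tested were called lower and 2.49% higher. The calls fell in 17 comparisons of 14 TFs, and 13 of the pairs called lower came from caup and 8 from the 0–1.5 hour window. Without both, 21 of 878 pairs (2.39%) were lower and 7 (0.797%) higher, against 1.55% and 2.7% of all genes. CG6723 and CG9657 passed the filter in 99 comparisons each, gcm2 in 120, and the other genes in 132 to 134. The medians of the log2 fold changes per gene ran from −0.12 for gcm to 0.15 for CG6723.

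After caup RNAi at 10–12 hours 9 of the 10 genes were called lower, where 49.5% of all genes were lower and 35.4% higher. caup encodes a homeodomain factor of the Iroquois complex. repo was 2.97 and 0.881 CPM against 44.9 and 42.9, Gs2 2.18 and 1.12 against 83.1 and 72.1, and CG6723 0.0892 and 0.0899 against 3.59 and 5.14. The RNAi libraries lay far below both controls for these genes, and the fitted log2 fold changes, which are relative to the bulk of genes, were −2.45 (adjusted p = 0.0203), −3.48 (adjusted p = 0.00153) and −3.50 (adjusted p = 0.00671). The neuron genes summed to 19.97 to 76.5 CPM against 925 to 1034 and the muscle genes to 231 to 895 against 15290 to 15620, so lower levels were not particular to glial genes. In the 16–18 hour window 4 of the 10 were called lower (18.5% of all genes), namely repo (log2 fold change −1.33, adjusted p = 0.0348), Gs2 (−1.25), Eaat1 (−1.08) and alrm (−0.9995). repo was then 4.00 and 1.89 CPM against 19.6 and 23.6.

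CG33557 RNAi at 6–8 hours, the window in which gcm was highest, lowered 5 of the 10 genes, against 11% of all genes. CG33557 encodes a basic helix-loop-helix factor. gcm was 30.1 and 31.9 CPM against 67.6 and 71.0 (log2 fold change −0.60, adjusted p = 0.0223), repo 21.8 and 28.0 against 47.9 and 59.0 (−0.53, adjusted p = 0.0622) and wrapper 15.4 and 17.7 against 35.6 and 36.9 (−0.57, adjusted p = 0.0423). Gs2 and alrm were also called lower, at −0.81 and −0.62 (adjusted p = 0.0211 and 0.0774). TMM scaling moved the fold changes of this comparison up by 0.57 log2 units relative to plain CPM. The neuron genes summed to 215 to 260 CPM against 459 to 515, with 1 of 14 called. RNAi against Hr51, a nuclear receptor, in the same window lowered repo, 36.9 and 29.5 CPM against 53.7 and 59.7 (−0.54, adjusted p = 0.0543), and wrapper, 19.8 and 18.5 against 29.0 and 35.4 (−0.51, adjusted p = 0.0543), where 6.81% of genes were lower. Its neuron genes summed to 397 to 401 CPM against 559 to 627, with 1 of 14 called lower. The muscle genes summed to 1411 to 1570 CPM against 2031 to 2142, with 0 of 7 called.

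After RNAi against scro, a homeodomain factor, at 12–14 hours, 4 of the genes highest late in control embryos were called lower, against 12.7% of all genes. Gat was 81.7 and 78.3 CPM against 147 and 240 (log2 fold change −0.88, adjusted p = 0.0608), and Gs2 96.2 and 61.5 against 180 and 194 (−0.86, adjusted p = 0.0709). CG9657 and alrm were at −0.58 each (adjusted p = 0.0728 and 0.0723). Neuron genes were lower too, 12 of 14, with sums of 733 to 795 CPM against 1424 to 2067, and 4 of 7 muscle genes were called lower. Kah RNAi at 8–10 hours lowered Gat alone, 13.4 and 17.6 CPM against 32.3 and 29.6 (−0.73, adjusted p = 0.00822, where 7.48% of genes were lower), with 5 of 14 neuron genes lower.

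CG10209 RNAi raised Gat and lowered CG6723, repo and wrapper. Gat was higher at 12–14 hours, 274 and 292 CPM against 176 and 201 (log2 fold change 0.69, standard error 0.0812, adjusted p = 0.000303, where 8.99% of genes were higher), and again at 16–18 hours, 428 and 432 against 225 and 265 (0.90, standard error 0.108, adjusted p = 0.00181, against 12.6%). CG6723 was lower at 16–18 hours, 10.4 and 14.4 CPM against 26.7 and 29.4 (−1.09, standard error 0.164, adjusted p = 0.00405, against 11.9%). repo and wrapper were lower as well, at −0.59 (adjusted p = 0.0185) and −0.56 (adjusted p = 0.0320). Neuron genes moved with Gat here: 7 of 14 were called higher at 12–14 hours and 9 of 14 at 16–18 hours.

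Gat was also called higher after RNAi against fd59A, a forkhead factor, at 16–18 hours, at 265 and 337 CPM against 143 and 166 (log2 fold change 1.10, standard error 0.145, adjusted p = 0.0345), with CG9657 at 15.4 and 18.3 against 12.6 and 12.8 (0.54, adjusted p = 0.0818). In that comparison 6.07% of genes and 5 of 14 neuron genes were higher, and the control libraries are those of caup. Over all 42 control libraries of this window Gat ran from 143 to 395 CPM (median 238). CG9657 ran from 8.66 to 24.0 CPM (median 17.1), and the fd59A RNAi values of both genes lay within these ranges. After TfAP-2 RNAi at 16–18 hours Gat was lower, 184 and 160 CPM against 269 and 255 (−0.73, adjusted p = 0.0191, where 4.18% of genes were lower), and 9 of 14 neuron genes were lower. Gat was thus called in 10 comparisons, 7 lower and 3 higher. In the 9 of these outside repo RNAi, the summed neuron genes lay on the same side of control as Gat, and their part in the Gat values was not tested.

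Single genes were called in the remaining comparisons. CG6723 was higher after sens-2 RNAi at 16–18 hours, 33.3 and 30.4 CPM against 16.1 and 15.4 (log2 fold change 0.87, standard error 0.119, adjusted p = 0.0236, where 3.26% of genes were higher). Eaat1 was lower after RNAi against trh, a factor of tracheal precursors, at 16–18 hours, 87.4 and 86.4 CPM against 129 and 146 (−0.83, standard error 0.114, adjusted p = 0.0813, against 0.775%). Gs2 was lower after RNAi against ERR, an oestrogen-related nuclear receptor, at 10–12 hours, 39.2 and 52.7 CPM against 72.9 and 65.6 (−0.60, standard error 0.134, adjusted p = 0.0792, against 2.07%). The RNAi and control libraries did not overlap in any of these, and the neuron sums were above control in all 3.

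At 2–4 hours twi RNAi was called for 3 genes at low levels. CG6723 was 0.729 and 0.653 CPM against 0.0461 and 0.0981 (log2 fold change 3.05, adjusted p = 0.0240), wrapper 0.329 and 0.343 against 0.0461 and 0.0981 (2.02, adjusted p = 0.0695) and Gs2 4.07 and 4.602 against 7.67 and 6.34 (−0.80, adjusted p = 0.0703). In that comparison 18.5% of genes were higher and 14.7% lower.

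At 0–1.5 hours the calls came from Sox14 and trh RNAi, which share control libraries. Gat was 1.47 and 0.709 CPM after Sox14 RNAi and 0.957 and 0.777 after trh RNAi, against 4.25 and 2.68 in the shared controls, with log2 fold changes of −1.60 (adjusted p = 0.0321) and −1.97 (adjusted p = 0.00295). Gs2 and alrm were called lower in both comparisons, and Eaat1 and repo after trh RNAi, giving 3 and 5 calls where 12% and 10.5% of genes were lower. In both comparisons 11 of 14 neuron genes and 7 of 7 muscle genes were called lower.

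**Figure D5:**
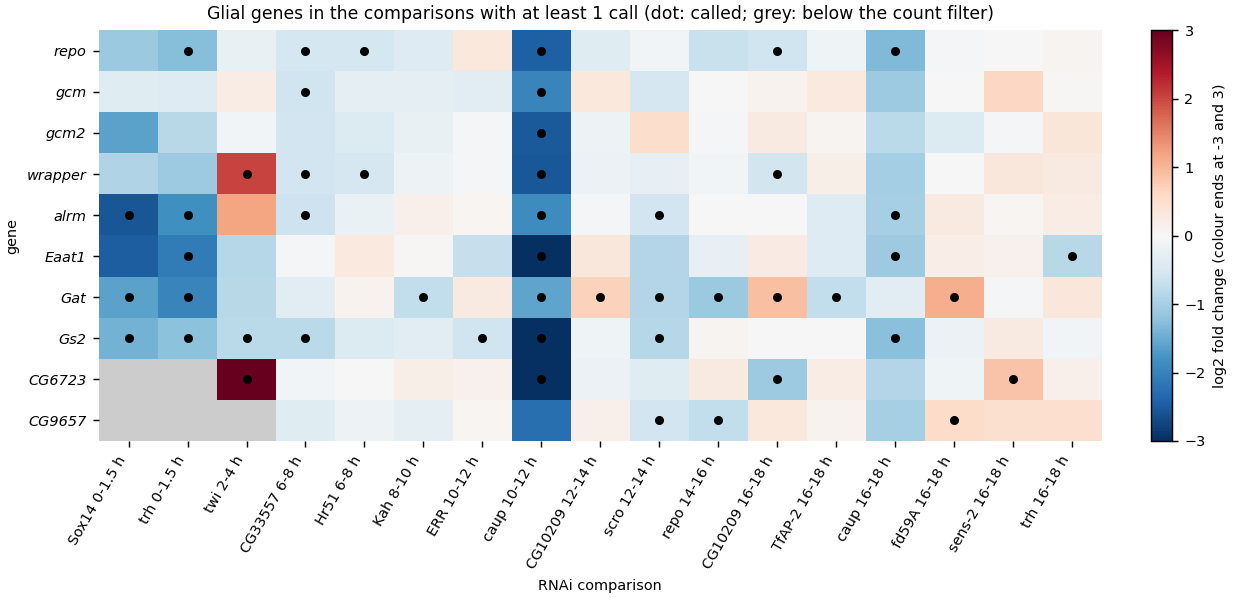
Log2 fold change of each glial gene (rows) in the 17 RNAi comparisons outside zfh2 with at least 1 call (columns, by window), coloured from −3 to 3, with a dot where the gene was called and grey where it was below the count filter. caup RNAi at 10–12 hours holds 9 of the 49 dots, and Gat is the gene with most dots, 7 lower and 3 higher.

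The genes whose levels moved most like those of the members over the 132 libraries at 16–18 hours were found by Pearson's r of log2 CPM, centred within each control set, among 10011 genes. The libraries share stage, and r is given as a description, since a few libraries carry much of it. CG9657 and alrm were each other's most like gene (r = 0.952). For CG6723 it was Obp44a (r = 0.904, and 0.746 without the zfh2 libraries), followed by CG1552 (0.883, and 0.72 without them) and Cyp6g2 (0.852, and 0.873 without them). Without the zfh2 libraries these genes were at places 3292, 3733 and 393 of 10011 and Oat was the most like CG6723 (0.934), so their order rests on the libraries that chose the gene. repo was most like metro (0.957), alpha-Catr and PIP5K59B (0.954 each), and wrapper most like SLC22A (0.925), Cyp4g15 and CG4829 (0.911 each). alrm was next most like CG7888 (0.925) and SLC22A (0.918), and CG9657 most like CG7888 (0.914) and Cyp4g15 (0.910) after alrm. Without the zfh2 libraries CG7888 and SLC22A were at places 130 and 179 for alrm, and CG7888 and Cyp4g15 at 408 and 478 for CG9657. For wrapper SLC22A, Cyp4g15 and CG4829 were then at places 84, 71 and 46. The r of these pairs was still 0.89 to 0.925, so their order rests on the zfh2 libraries as well. Eaat1 was most like Syngr (0.917), CG4928 (0.916) and nolo (0.915), and Gat most like Ktl (0.877), beat-Va (0.872) and CARPA (0.863). For Gs2 they were AhcyL2 (0.972), slif (0.970) and CG5273 (0.969). Without the caup and dmrt99B libraries, r was 0.852 for repo and metro, 0.891 for CG9657 and alrm and 0.949 for CG6723 and Obp44a. Without the zfh2 libraries the most like gene stayed as it was for repo, alrm, CG9657, Eaat1 and Gat, and became betaTub97EF for wrapper (0.941) and Atg9 for Gs2 (0.977). gcm and gcm2 averaged under 1 CPM at this stage and were left out.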

How the data were processed

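Per the labels, reads of poly(A) RNA from whole embryos were aligned by the authors to dm6 with STAR 2.7.3a, allowing up to 20 alignments, and the deposited counts per gene were made with HTSeq 0.12.4, which leaves out reads on more than 1 gene. The labels also name DESeq2 1.24.0. Counts were used as deposited, and the 5 summary lines, 3.52% to 20.65% of a library, were left out. The 10 genes, the gene lists and the TFs read closely were chosen with earlier results of these data known.

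Each RNAi group was compared with the control libraries of its set and window, and control windows with the window before, by edgeR 4.0.16 in R 4.3.3 (quasi-likelihood test, TMM, filterByExpr at a minimum count of 10, p adjusted over all genes tested by the method of Benjamini and Hochberg). Alternatives were RLE size factors, no filter, DESeq2 1.42.0, a replicate block, leaving out each replicate, a fit of all libraries sharing controls, an adjusted p of at most 0.05 and other references. Named were all members, every TF with a called member, called list genes and the 3 genes most like each member (mean of at least 1 CPM, prior count 2). Gene positions and current names are from a dm6 annotation matched by symbol. The libraries of a set were checked for identical files, and 0 were found. The fits were tested on simulated data.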

Additional observations from a re-analysis of the deposited data

Results flagged for a closer look

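Among 40 sets of 4 to 10 control libraries of one gene and window, 2 held a library far from the others, where chance gives about 1 in 20. Gs2 was 429.8 CPM in replicate 1 of the CG9876 and Hr51 controls at 12–14 hours, against 51.1 to 194 in the other libraries. Eaat1 was 2.94 CPM in replicate 2 of the controls shared by CG15696, su(Hw), gfzf and cad at 2–4 hours, against 0.355 to 0.691.

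Of 159 differences between the windows of a TF, tested as an interaction with edgeR, 19 passed. They are given as the later log2 fold change less that at 0–1.5 hours, and all 19 involve that window, where the members are at low levels. Each comes from a joint fit of all windows of the TF. The values therefore need not equal the difference of the fold changes above, which were fitted window by window. For each TF only the members already called in 1 of its windows were tested, and for repo RNAi all members. The tests are therefore not independent of those calls, and the share of all genes passing the same tests was not computed. After Sox14 RNAi the difference was 1.06 (adjusted p = 0.0343) for Gs2 and 2.13 (adjusted p = 0.00966) for alrm at 6–8 hours, and 1.71 (adjusted p = 0.0811) for Gat, 1.39 (adjusted p = 0.00944) for Gs2 and 2.72 (adjusted p = 0.00313) for alrm at 16–18 hours. After trh RNAi, with the same controls, it was 1.44 for Gat (adjusted p = 0.0653), 1.11 for Gs2 (adjusted p = 0.00490), 1.91 for alrm (adjusted p = 0.0155) and 1.44 for repo (adjusted p = 0.0449) at 6–8 hours. At 16–18 hours it was 2.43 for Gat (adjusted p = 0.00592), 1.28 for Gs2 (adjusted p = 0.00184), 2.19 for alrm (adjusted p = 0.00616) and 1.48 for repo (adjusted p = 0.0278). After caup RNAi the difference at 10–12 hours was −4.20 for CG6723 (adjusted p = 0.0580), −4.33 for Eaat1 (adjusted p = 0.0440), −4.03 for Gs2 (adjusted p = 0.0883), −3.25 for alrm (adjusted p = 0.0185) and −3.76 for repo (adjusted p = 0.0840). After CG33557 RNAi it was −1.78 for gcm at 6–8 hours (adjusted p = 0.0776).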

How the results depend on the processing

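No value changed direction past its threshold under the alternatives tried. Of the 49 called pairs outside zfh2, 14 were called under every alternative run on them and 5 under all but 1, with 39 called by DESeq2, 42 with a replicate block and 29 with the adjusted p held to 0.05. The 42 pairs called lower became 24 at this stricter p, 21 without caup and the 0–1.5 hour window (added after seeing the data) and 27 to 64 when a replicate was left out, and the 7 called higher became 13 with DESeq2 and 15 to 22 when a replicate was left out. The log2 fold change of repo after repo RNAi at 14–16 hours, −0.68, passed the threshold with no filter (−0.68), DESeq2 (−0.70) and a replicate block (−0.69), and ran from −0.89 to −0.51 when a replicate was left out. At 16–18 hours it passed with DESeq2 (−1.01) and ran from −1.14 to −0.88 when a replicate was left out. The 2 members called lower after repo RNAi at 14–16 hours became 0 in 1 fit of all libraries sharing the controls, 0 at the stricter p and 0 to 2 when a replicate was left out. Of the 29 glial list genes, those lower after zfh2 RNAi at 12–14 hours went from 3 to 1 and those higher from 1 to 0 with no filter. At 16–18 hours 0 to 5 were lower when a replicate was left out, against 2, and the 2 higher became 1 with DESeq2, which gave neither of the 2 an adjusted p, 0 at the stricter p and 0 to 3 when a replicate was left out. After repo RNAi at 14–16 hours 1 was lower in place of 0 with no filter, DESeq2 or a replicate block, and 0 to 4 when a replicate was left out. The 1 higher became 0 in the fit sharing the controls, 0 at the stricter p and 0 to 1 when a replicate was left out, and at 16–18 hours DESeq2 called 1 higher in place of 0. Between control windows, the 7 members higher at 2–4 hours became 3 with no filter, 4 with counts summed over the replicates of a control set and 2 to 6 when a replicate was left out. The 9 higher at 6–8 hours became 4 to 10, and the 6 higher at 12–14 hours 3 to 5, when a replicate was left out. At 8–10 hours 1 was higher in place of 0 with RLE size factors or with the mCherry controls alone. The 1 lower at 10–12 hours became 0 with summed counts or without either replicate. The 2 higher at 14–16 hours became 1 with summed counts, without either replicate or at the stricter p, and the 1 lower at 16–18 hours became 0 with summed counts, 0 at the stricter p and 0 to 1 when a replicate was left out. The cause of these changes was not tested.

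The replicate numbers only number the samples, and the deviations of equally numbered libraries correlated at 0.0982 and −0.154 for zfh2 at 12–14 and 16–18 hours and 0.140 and 0.0419 for repo at 14–16 and 16–18 hours. With the replicate block the genes called went from 163 to 255, 45 to 189, 380 to 878 and 0 to 0 in these comparisons, and a crossed pairing of zfh2 at 16–18 hours, added after seeing the data, gave 343. Each comparison rests on 2 libraries a side at most, and counts of CG6723, CG9657 and gcm2 in the earliest windows were few, which limits the precision of their values there.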
